A study of Mus musculus with 12 samples.

Results

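Balb/c bone-marrow-derived macrophages kept in interleukin-4 (IL-4) for 18 h were compared with those kept in it for 4 h, on 4 of the 12 arrays of the study. They were chosen by their labels: Balb/cAnNCrl mice, called Balb/c here, with 2 arrays at 4 h and 2 at 18 h. IL-4 was given at 10 ng/ml from day 7 of a culture grown in 200 ng/ml human CSF1, and every array used RNA pooled from 2 males and 1 female aged 8 to 12 weeks. The other groups, again with 2 arrays each, were Balb/c cells cultured for 18 h with no IL-4 (mock) and C57BL6/J cells, called C57BL6, under the same 3 conditions. The protocol text that all samples share also names LPS, which no sample label of these groups lists. Only the 18 h samples had a mock of their own length, so a difference between 4 h and mock also holds a difference in culture time. The 2 replicates of each condition came from different littermates in 2 independent experiments, so the p-values measure the spread between pools and not between mice.

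IL-4 is a cytokine of type 2 immunity that signals in macrophages through its receptor and the transcription factor STAT6. Its response is known to come in waves: feedback inhibitors and transcription factors respond early, while many enzymes and secreted effectors of the alternatively activated state build up slowly. Macrophages in culture also keep a basal interferon program, in which STAT2 and IRF9 act on interferon-stimulated response elements in promoters.

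A level below is the log2 of the processed signal minus the 75th percentile of its array, so 0 stands for the 75th percentile and levels of different genes are not compared. On the arrays compared, 54.9% to 67.7% of spots were well above background, the highest value being that of replicate 2 at 4 h, and the replicates correlated at 0.971 (4 h) and 0.985 (18 h) over genes. All 12 macrophage identity markers, such as Csf1r and Adgre1, were above background on all 4 arrays. The neutrophil markers had 7 of 12 above background on 3 of these arrays and 9 on replicate 2 at 4 h. Their summed linear level was 10.1 and 5.89 at 4 h and 4.58 and 3.82 at 18 h, with Cxcr2, Lcn2 and Elane above background on no array. For dendritic cell markers the sums were 18.6 and 10.1 at 4 h and 8.53 and 6.69 at 18 h, with 7, 7, 6 and 7 of 9 above background and Clec9a and Siglech above it nowhere. The part of other cells in the results below was not tested, and fewer cells of a type cannot be told apart from less RNA per cell in such samples.

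Between 4 h and 18 h many genes of the interferon response fell and some IL-4 effectors rose. Of 15398 genes tested, 228 (1.48%) differed at a Benjamini-Hochberg adjusted p below 0.05 in limma, the rule by which a gene is called here. Of these, 65 (0.422%) were higher at 18 h and 163 (1.06%) were lower, and 55 and 146 of them changed at least 2-fold. Among the 228, 7 were well above background on neither 4 h array and 24 on neither 18 h array. These 31 passed the filter only through the other time, where they were high. Their adjusted p-values rest partly on levels near background, so they are given below with bounds. For all 228 genes both 18 h arrays lay on one side of both 4 h arrays. Over all genes tested, 19.1% were separated in this way with 18 h higher and 18.8% with 18 h lower. Replicate 1 of both times was on slide 1 and replicate 2 on slide 2. All 228 genes moved the same way within each slide, which follows from that separation and is no further check. The median difference of all genes was -0.02. With the replicate number as a block in the fit, 1763 genes were called (11.4%), 897 higher (5.83%) and 866 lower (5.62%), among them all 228. The count was 0 when only the 4 arrays, or only the 6 Balb/c arrays, entered the fit, and 268 with the 6 Balb/c arrays and the block. It was 101 without replicate 1 at 4 h, 132 without replicate 2 at 4 h, 44 without replicate 1 at 18 h and 89 without replicate 2 at 18 h.

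**Figure D1:**
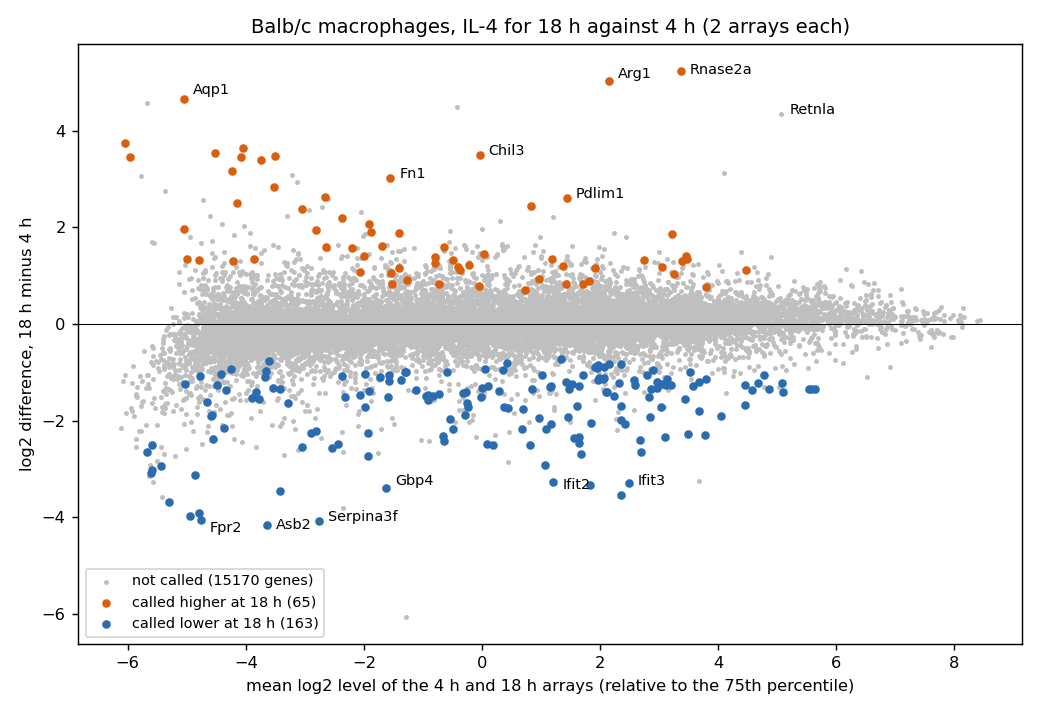
Log2 difference between 18 h and 4 h of IL-4 in Balb/c macrophages (vertical) against the mean log2 level of the 4 arrays (horizontal), 1 point a gene. Orange points are the 65 genes called higher and blue points the 163 called lower, and grey points such as Retnla were not called.

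The lowest grey point of that plot is 4930432J09Rik, whose level was 6.98 on one 4 h array and -3.50 on the other, so its large difference rested on 1 spot and was not called.

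Genes called between the times were split by their difference between 4 h and mock, with limits at 0.5 on the log2 scale. Among the 65 higher at 18 h, 23 lay within the limits at 4 h (rising late), 24 above them (rising further) and 18 below them (recovering). Among the 163 lower at 18 h, 32 lay above the limits at 4 h (fading), 92 within them (falling late) and 39 below them (falling further). The classes follow fitted differences: 8 of the 24, 6 of the 18, 17 of the 32 and 5 of the 39 were themselves called against mock at 4 h, and 0 of the genes within the limits. The 3 differences share arrays, so the split is a description and its values are set side by side with no test between them. With limits at 1 the 6 classes held 44, 14, 7, 23, 122 and 18 genes in the same order.

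**Figure D2:**
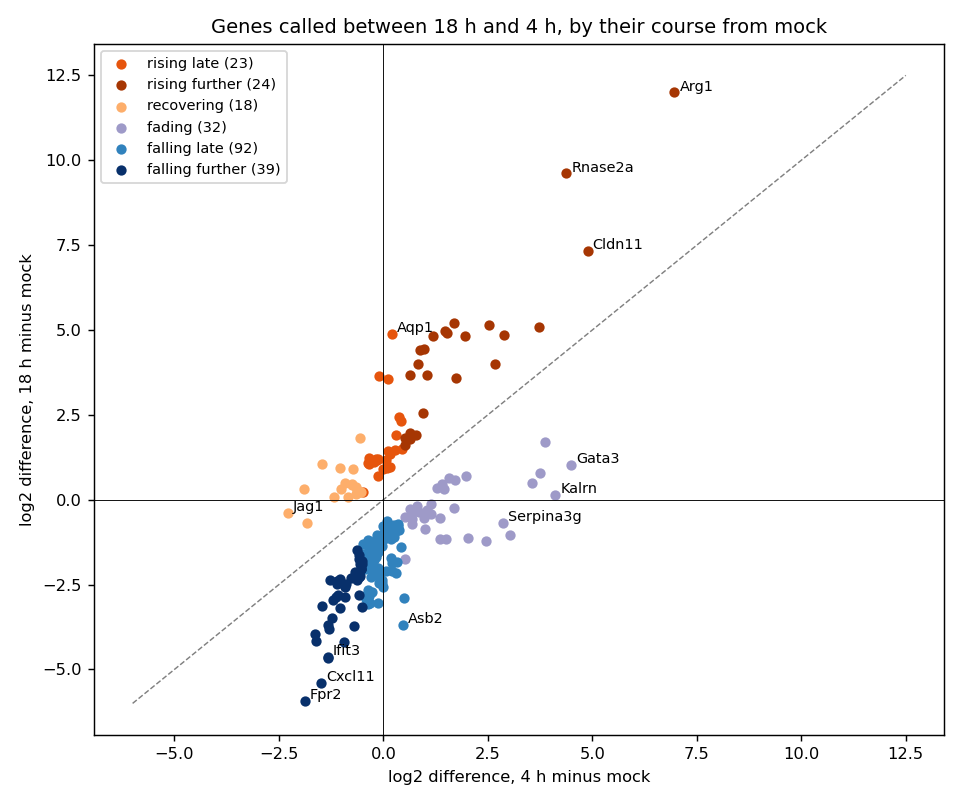
Log2 difference from mock at 18 h (vertical) against that at 4 h (horizontal) for the 228 called genes in Balb/c, coloured by class. Points above the dashed line of equal differences were higher at 18 h than at 4 h, and the fading genes lie right of 0, between -1.75 and 1.69 on the vertical axis.

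The genes that were rising further were led by effectors of alternative activation. Rnase2a, an eosinophil-associated ribonuclease, had levels of -3.15 and -4.11 in mock, 0.91 and 0.59 at 4 h, and 5.91 and 6.06 at 18 h. Each step was larger than the gap between replicates, and the rise from 4 h to 18 h was 37.7-fold (log2 difference 5.24 ± 0.42 SE, limma adjusted p = 0.00275). Arg1, the enzyme that splits arginine into ornithine and urea, stood at -1.04 and 0.30 at 4 h and at 4.58 and 4.75 at 18 h. It was at -7.01 and -7.66 in mock, not well above background, and it rose 32.8-fold between 4 h and 18 h (5.04 ± 0.44 SE, limma adjusted p = 0.00311). Chil3, a chitinase-like secreted lectin also called Ym1, went from -1.46 and -2.13 to 2.48 and 0.95 (3.51 ± 0.58 SE, limma adjusted p = 0.0271). Chil3 was not called at 4 h against mock, where the difference was 1.69 (limma adjusted p = 0.262), and was called at 18 h with 5.20 (limma adjusted p = 0.00188).

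Other eosinophil-associated ribonucleases were also called. All 5 members tested, Rnase2a, Ear1, Ear3, Ear6 and Ear10, were called higher at 18 h. Ear3, Ear6 and Ear10 were not well above background on either 4 h array, and Ear1 was on 1. These members passed the filter only through the 18 h arrays, where they were high. A member dim at both times could not be tested, so the count says little about the family. Ear10 had 4 h levels of -5.27 and -6.49, not well above background, and 18 h levels of -1.87 and -2.59, at least 10.9-fold higher. A bound of this kind sets the 18 h mean against the dimmest level still well above background on each 4 h array, or against the probe itself where it was brighter. Ear6 was at least 10.1-fold and Ear3 at least 7.64-fold higher on the same reckoning. These genes are close copies of each other, so signal shared between their probes is uncertain.

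Of the list of alternative activation effectors, 26 genes were tested, 5 were called higher and 0 lower, with a median log2 difference of 0.86 against -0.02 for all genes. The other called members were Fn1 and Flt1. Fn1, the matrix protein fibronectin, rose from -2.93 and -3.19 to 0.15 and -0.22 (8.13-fold, limma adjusted p = 0.0103), and its other kept probe gave 2.94 without passing (limma adjusted p = 0.105). Flt1, a receptor for vascular endothelial growth factor, stood at 2.46 and 3.14 at 4 h and at 4.07 and 4.25 at 18 h (1.36 ± 0.26 SE, limma adjusted p = 0.0469). Of its other kept probes 1 gave 1.34 and 1 gave -1.10, neither called. The list's count was 3 without either 4 h replicate, 2 without replicate 1 at 18 h and 4 without replicate 2 at 18 h.

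With the replicate block 13 of the 26 were higher and 2 lower, against 5.83% and 5.62% of all genes. Retnla, the secreted protein also called FIZZ1, was at -2.96 and -7.40 in mock, 3.66 and 2.12 at 4 h, and 7.49 and 6.97 at 18 h. Its arrays did not overlap, but the wide gap between the mock arrays enters its error, and the difference of 4.34 ± 1.18 SE had a limma adjusted p of 0.152, or 0.0292 with the block. Mgl2, a galactose-binding lectin receptor, went from 1.35 and 3.72 to 5.29 and 6.04 (3.13, limma adjusted p = 0.155, or 0.00844 with the block). Chil4 and the chemokine Ccl8 had differences of 3.09 and 2.22, with limma adjusted p of 0.0641 and 0.0747, and passed with the block at 0.00253 and 0.0203. Mrc1, the mannose receptor, differed by 0.75 (limma adjusted p = 0.109, or 0.03 with the block), and Ccl17 by -0.83 (limma adjusted p = 0.522).

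Other genes rising further have varied roles. Cldn11, a tight-junction claudin, had levels of -5.39 and -5.14 in mock, -0.18 and -0.58 at 4 h, and 2.28 and 1.83 at 18 h. Pdlim1, a PDZ and LIM domain protein of the actin cytoskeleton, climbed from 0.72 and -0.46 to 2.72 and 2.78 (6.15-fold, limma adjusted p = 0.0129). Wwc1, the Hippo pathway protein KIBRA, went from -3.85 and -4.10 to -0.83 and -1.83 (6.24-fold, limma adjusted p = 0.0076). In none of these 3 genes did the 4 h and 18 h arrays overlap. Tuba8, a tubulin, and Lipn, a lipase family member, rose by 3.40 and 1.95 on the log2 scale (limma adjusted p = 0.0491 and 0.0177), with Tuba8 well above background on 1 of the 2 arrays at 4 h. Gfra2, a receptor for GDNF family ligands, was near background at 4 h and at least 7.06-fold higher at 18 h. Postn, the matrix protein periostin, rose 3.01-fold (limma adjusted p = 0.026).

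Of 13 macrophage fusion genes tested, with a median of 0.30, 2 were called higher and 0 lower, against 0.422% and 1.06% of all genes. Itgb3, the integrin beta3 chain, stood at 2.12 and 2.46 at 4 h and 4.21 and 4.11 at 18 h, a tight 3.64-fold rise (limma adjusted p = 0.00311), although its other kept probe gave 0.40 and was not called. Ocstamp, a membrane protein needed for fusion of osteoclasts, belongs to the genes rising late. It was at -2.48 and -2.20 at 4 h and 0.02 and -0.93 at 18 h (1.88 ± 0.32 SE, limma adjusted p = 0.0322), and its other probe gave 3.91. Dcstamp, its partner in fusion, and Atp6v0d2, a proton pump subunit, differed by 1.29 and 1.43 without passing (limma adjusted p = 0.165 and 0.479), and passed with the block at 0.0249 and 0.00277. Without any 1 of the 4 arrays the list held 1 or 2 calls, and its median turned to -0.02 without replicate 2 at 4 h and to -0.12 without replicate 1 at 18 h.

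The genes rising late differed from mock by less than 0.5 log2 at 4 h. Aqp1, a water channel, had levels of -7.59 and -7.58 in mock and -7.21 and -7.53 at 4 h, not well above background on either 4 h array. At 18 h it stood at -3.29 and -2.13, at least 7.83-fold higher (limma adjusted p = 0.0076). Slc39a12, a zinc transporter, went from -3.43 and -2.47 to -0.91 and -0.84 (4.21-fold, limma adjusted p = 0.019). Of the 23 genes in this class, 21 were also called higher at 18 h than in mock, and their median rise between the times was 1.34 on the log2 scale.

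Other genes of this class showed smaller rises. Pcolce, which enhances the trimming of procollagen, had levels of -1.36 and -1.52 at 4 h and 0.15 and 0.16 at 18 h (3.02-fold, limma adjusted p = 0.0128). Timp1, an inhibitor of matrix metalloproteinases, rose 2.16-fold (limma adjusted p = 0.0271), and its other 2 kept probes gave 0.96 and 1.63 without passing. Slc7a11, the cystine importer, rose 2.51-fold (limma adjusted p = 0.0175) from low levels of -5.47 and -5.45, of which 1 was well above background, so the fold is a fitted value. Dnm1, a dynamin of endocytosis, and Crip2, a LIM domain protein, rose by 1.58 and 1.46 on the log2 scale (limma adjusted p = 0.0245 and 0.0491). Of 16 genes for matrix proteins and proteases, 3 were called higher, Fn1, Plaur and Timp1, and 0 lower, with 1, 1, 0 and 2 calls left without replicate 1 or 2 at 4 h and replicate 1 or 2 at 18 h. Among all genes tested 0.422% were called higher and 1.06% lower. Mmp14, a membrane-bound collagenase, differed the other way from these 3 by -2.40 (limma adjusted p = 0.261, or 0.0147 with the block).

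Another pair of genes in the class rested on dim probes. Thumpd1 was at least 2.83-fold higher at 18 h by its tested probe, which was near background in mock and at 4 h, while its other probe gave 0.00 and was not called. In C57BL6 the tested probe was bright, at 2.83 and 2.73 at 4 h and 2.41 and 2.61 at 18 h. Adra2a, an adrenergic receptor, was at least 2.72-fold higher, from -7.00 and -8.40 to -4.44 and -4.03. With normexp background correction the sign of 13 rises from dim levels turned: Aqp1, Thumpd1, Adra2a, Slc7a11, Ear3, Ear6, Ear10, Tuba8, Gfra2, Lipn, Gfi1b, Fzd1 and Stk32c. With normexp fitted only on spots without outlier flags, which was added after seeing the data, none of them turned.

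Of the 18 recovering genes, 6 were called lower than mock at 4 h. Jag1, a ligand of Notch receptors, fell from -0.87 and -0.23 in mock to -3.16 and -2.51 at 4 h and stood at -1.04 and -0.83 at 18 h. The rise from 4 h was 3.73-fold (limma adjusted p = 0.0491), and at 18 h its difference from mock was -0.38 (limma adjusted p = 0.655). Spsb4, a SOCS-box protein, took the same course, at -1.95 and -1.19, then -3.80 and -3.13, then -1.09 and -1.45 (4.57-fold from 4 h, limma adjusted p = 0.0121). Against mock, 1 of the 18 was called higher at 18 h, with a median difference of 0.30 at 18 h.

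Other members of this class followed. Hmox1, the heme-degrading enzyme, was at 3.66 and 3.67 in mock, 2.73 and 2.77 at 4 h, and 4.21 and 4.13 at 18 h, with replicates closer than 0.1 at every step (1.42 ± 0.14 SE, limma adjusted p = 0.00465). Thbd, which encodes the anticoagulant receptor thrombomodulin, went from -1.41 and -1.45 to -0.11 and -0.23 (limma adjusted p = 0.00689). Plaur, the urokinase receptor, went from 1.75 and 2.40 to 3.49 and 3.33 (limma adjusted p = 0.0238). For these 3 genes the 18 h arrays were close to or above the mock arrays. Fzd1, a Wnt receptor, rose 5.65-fold, Gfi1b, a transcriptional repressor, 5.22-fold, Smpd3, a neutral sphingomyelinase, 3.08-fold and Stk32c, a kinase, 3.90-fold (limma adjusted p = 0.0449, 0.0229, 0.0177 and 0.0367). None of them was called lower than mock at 4 h (limma adjusted p = 0.214, 0.709, 0.225 and 0.247 in that order). Gfi1b differed from mock by -0.56 at 4 h and by 1.82 at 18 h (limma adjusted p = 0.0281). It is the 1 gene of the 18 called higher than mock at 18 h, so it passed its mock level. Fzd1 and Stk32c were well above background on 1 of the 2 arrays at 4 h, so their folds are fitted values and not exact sizes. The other kept probes of Smpd3 gave 1.68 and 0.91 without passing. Fos, an immediate-early transcription factor, differed by 1.70 and did not pass (limma adjusted p = 0.067, or 0.0103 with the block).

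**Figure D3:**
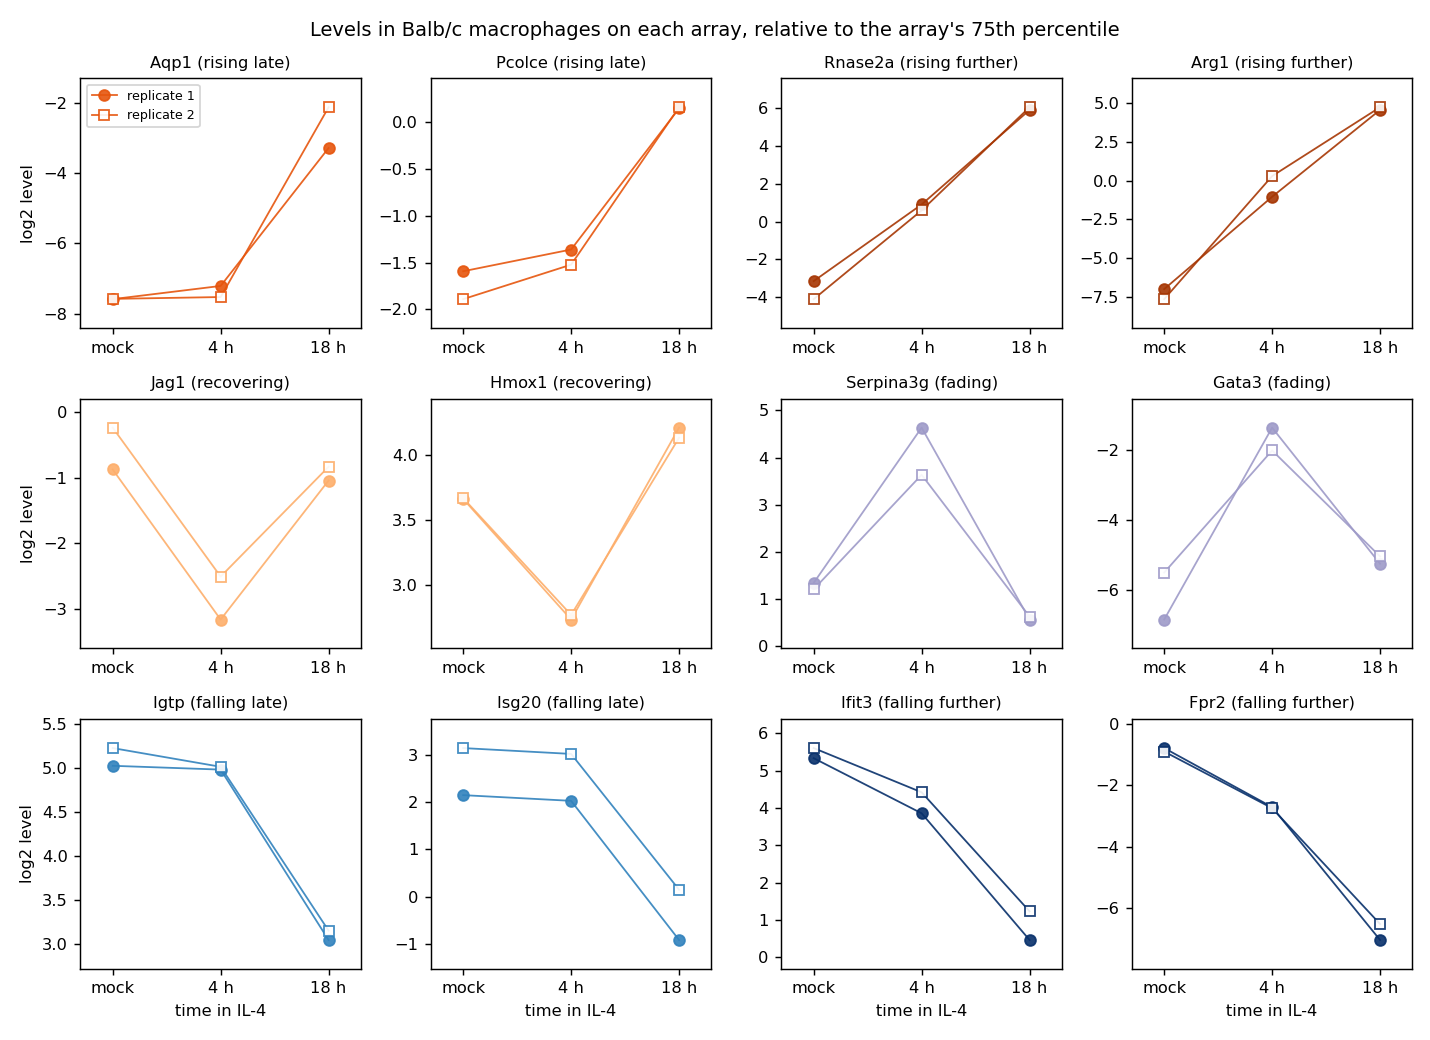
Log2 level relative to the array's 75th percentile (vertical, a scale for each panel) in mock, 4 h and 18 h Balb/c macrophages for 12 genes, with 1 line for each replicate number. The panels run from genes rising late, such as Aqp1, to genes falling further, such as Fpr2, and in every panel the 4 h and 18 h points do not overlap.

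Of the 32 fading genes, 17 were called higher at 4 h than in mock, and at 18 h 2 were called higher and 1 lower than mock. Serpina3g, a serine protease inhibitor, was at 1.34 and 1.20 in mock, 4.64 and 3.63 at 4 h, and 0.56 and 0.62 at 18 h. It fell 11.7-fold between the times (-3.55 ± 0.36 SE, limma adjusted p = 0.0052), and at 18 h its difference from mock of -0.68 ± 0.36 SE did not pass (limma adjusted p = 0.395), although both 18 h arrays lay below both mock arrays. Serpina3f, its neighbour in the family, was at -0.19 and -1.26 at 4 h and -4.83 and -4.77 at 18 h, where it was near background, at least 16.9-fold lower. The third family member tested, Serpina3m, differed by -0.13 and was not called. Signal shared between these close copies is uncertain.

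Gata3, a transcription factor best known from T helper 2 cells, rose from -6.85 and -5.50 in mock to -1.36 and -2.01 at 4 h and was back at -5.25 and -5.04 at 18 h. The fall was at least 10.3-fold, since both 18 h arrays were near background (limma adjusted p = 0.00871). Kalrn, a guanine nucleotide exchange factor, was at -1.97 and -3.94 at 4 h and near background in mock and at 18 h, at least 4.25-fold lower at 18 h. Bmp2, a growth factor of the TGF-beta family, was at least 3.35-fold lower at 18 h, Ldoc1 at least 1.97-fold and the opioid receptor gene Oprm1 at least 1.62-fold. Cited2, a transcriptional co-regulator, fell from 3.24 and 2.71 to 1.51 and 1.47, and its 3 other kept probes were each called lower as well. The 4 h rises of Bmp2, Oprm1 and Cited2 over mock were not called (limma adjusted p = 0.0766, 0.215 and 0.106). Hdc, the enzyme that makes histamine, fell 4.81-fold between the times (limma adjusted p = 0.0177). Its difference from mock at 4 h was 0.52, just past the class limit, and not called (limma adjusted p = 0.688). Hdc is the 1 gene of the 32 called lower than mock at 18 h (-1.75, limma adjusted p = 0.0194), so its class is uncertain.

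The list of IL-4 receptor signalling and feedback genes gave 2 calls of 19 tested, both lower, against 1.06% of all genes. The list median was -0.39. Socs2, a suppressor of cytokine signalling, was at -2.92 and -3.63 in mock, 1.05 and 0.14 at 4 h, and -1.58 and -1.59 at 18 h. It fell 4.53-fold (limma adjusted p = 0.0225) and stayed above mock at 18 h (1.69, limma adjusted p = 0.0257). Its other probe gave -1.49 and did not pass. Il13ra1, a receptor chain shared with IL-13, differed from mock by -0.93 at 4 h without passing (limma adjusted p = 0.256) and fell 3.13-fold between the times (limma adjusted p = 0.0486). Without replicate 2 at 4 h the list held 1 call, and without any other single array 0.

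The remaining members of that list that are reported whatever their outcome did not pass. Socs1 stood at 1.05 and 0.98 in mock, 5.82 and 5.42 at 4 h and 4.52 and 4.82 at 18 h, so the 18 h arrays lay below both 4 h arrays (-0.95 ± 0.19 SE, limma adjusted p = 0.0547, or 0.0249 with the block). Il4ra, the IL-4 receptor alpha chain, went from 4.20 and 3.48 to 2.37 and 2.58 (-1.36 ± 0.32 SE, limma adjusted p = 0.0941, or 0.0367 with the block). Cish, another feedback inhibitor, differed by -0.74 (limma adjusted p = 0.827) and Stat6 by 0.18 (limma adjusted p = 0.774). Irf4, a transcription factor of the IL-4 response, was at 1.55 and 0.43 at 4 h and 0.40 and -0.03 at 18 h, a difference of -0.81 (limma adjusted p = 0.622). For Cish and Irf4 the replicates lay far apart, so a moderate change could not be seen with 2 arrays.

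No other list held as many called genes as the interferon response. The list was chosen with earlier results of these data known, so its counts are a description and no test. Of its 34 genes, all tested, 20 were called lower at 18 h and 0 higher, against 1.06% and 0.422% of all genes. Their median log2 difference was -1.83, with a range of -3.29 to -0.59. In 33 of the 34 both 18 h arrays lay below both 4 h arrays, against 18.8% of all genes. All 34 were called lower with the replicate block, against 5.62% of all genes. At 4 h their median difference from mock was -0.34, and at 18 h it was -2.02. The number called was 18 without replicate 1 at 4 h, 13 without replicate 2 at 4 h, 9 without replicate 1 at 18 h and 15 without replicate 2 at 18 h.

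The Ifit genes encode antiviral proteins that bind foreign RNA, and Ifit3 and Ifit2 had the largest differences of the list. Ifit3 had levels of 5.33 and 5.60 in mock, 3.86 and 4.42 at 4 h and 0.47 and 1.23 at 18 h. Its difference between 4 h and mock did not pass (limma adjusted p = 0.0613), and it fell 9.78-fold between 4 h and 18 h (-3.29 ± 0.28 SE, limma adjusted p = 0.00311). Ifit2 went from 2.65 and 3.04 to -0.61 and -0.24 (9.63-fold lower, limma adjusted p = 0.00247), and Ifit1 from 1.70 and 2.44 to -0.81 and -0.07 (5.70-fold lower, limma adjusted p = 0.00808). Isg20, an exonuclease, was close to mock at 4 h, at 2.03 and 3.03 against 2.15 and 3.15, and was at -0.92 and 0.15 at 18 h (7.57-fold lower, limma adjusted p = 0.023). Within the slides its difference was -2.96 and -2.88, while the replicates of each time lay about as far apart as 1 log2 unit. Isg15, a ubiquitin-like modifier, went from 3.43 and 4.33 to 0.98 and 1.98 (5.28-fold lower, limma adjusted p = 0.0336).

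Regulators of the program were measured too. Irf7, the factor that amplifies interferon production, fell from 4.58 on both 4 h arrays to 2.42 and 3.13 (3.49-fold lower, limma adjusted p = 0.0102). Stat2 fell from 3.69 and 3.36 to 2.23 and 2.15 (limma adjusted p = 0.0161). Irf9, a DNA-binding partner of STAT2, differed by -0.61 and Bst2, the tethering factor tetherin, by -0.59. Neither passed (limma adjusted p = 0.0641 and 0.354, or 0.0147 and 0.0442 with the block). The sensor Zbp1 was 4.92-fold lower, the oligoadenylate synthetase Oas3 4.22-fold and Ifi44 4.88-fold (limma adjusted p = 0.00275, 0.019 and 0.00762). The other kept probes of Oas3 and Ifi44 gave -1.14 and -1.93 without passing (limma adjusted p = 0.0929 and 0.18).

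All 6 immunity-related GTPases tested, which act on the vacuoles of intracellular pathogens, were called lower, against 1.06% of all genes. Their median was -2.03. Igtp was at 4.98 and 5.01 at 4 h, next to 5.02 and 5.23 in mock, and at 3.05 and 3.15 at 18 h (3.73-fold lower, limma adjusted p = 0.00247). Tgtp1 went from 4.05 and 3.99 to 1.20 and 1.54 (6.29-fold lower, limma adjusted p = 0.00247), and Iigp1 and Irgm2 were 6.45-fold and 3.96-fold lower. Of 9 guanylate-binding proteins, 6 were called lower and all 9 with the block, against 1.06% and 5.62% of all genes. Their differences ran from -3.39 to -1.92. Gbp4 went from 0.86 and -0.72 to -3.05 and -3.58 (limma adjusted p = 0.0162), Gbp6 from -0.43 and -0.70 to -3.45 and -3.16 (limma adjusted p = 0.00358), and Gbp2 was 3.79-fold lower. Many of these genes are close copies, and signal shared between their probes is uncertain.

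The promoters of Ifit3, Ifit1 and Isg15 are shown because they carry the element that interferon-stimulated factors are known to bind. They were picked for this element and do not stand for the Ifit and Isg genes as a group. The promoters of Ifit2 and Isg20, which fell more than Ifit1 and Isg15 did, are not shown. Each window runs from 250 bases before to 50 bases after a transcription start in RefSeq (GRCm38.p6), 5′ to 3′ on the strand of the gene, with matches to GAAANNGAAA on either strand in capitals. For Ifit3, whose gene begins at 34583119, the start used lies inside the gene span. The windows are chr19:34583279-34583578 (plus strand), chr19:34640639-34640938 (plus strand) and chr4:156200769-156201068 (minus strand), with 2, 2 and 3 matches, those of Isg15 overlapping.
Ifit3: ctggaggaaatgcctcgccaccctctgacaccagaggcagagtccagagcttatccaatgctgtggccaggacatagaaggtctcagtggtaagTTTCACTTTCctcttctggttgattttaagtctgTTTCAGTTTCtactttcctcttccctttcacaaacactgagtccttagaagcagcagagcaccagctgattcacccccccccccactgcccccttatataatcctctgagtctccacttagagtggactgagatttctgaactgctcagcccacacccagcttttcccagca
Ifit1: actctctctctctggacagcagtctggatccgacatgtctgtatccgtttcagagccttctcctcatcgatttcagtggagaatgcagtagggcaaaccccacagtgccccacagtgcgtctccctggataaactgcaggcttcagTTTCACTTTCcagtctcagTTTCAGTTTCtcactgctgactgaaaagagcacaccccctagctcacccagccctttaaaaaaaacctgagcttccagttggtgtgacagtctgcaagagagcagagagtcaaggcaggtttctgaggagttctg
Isg15: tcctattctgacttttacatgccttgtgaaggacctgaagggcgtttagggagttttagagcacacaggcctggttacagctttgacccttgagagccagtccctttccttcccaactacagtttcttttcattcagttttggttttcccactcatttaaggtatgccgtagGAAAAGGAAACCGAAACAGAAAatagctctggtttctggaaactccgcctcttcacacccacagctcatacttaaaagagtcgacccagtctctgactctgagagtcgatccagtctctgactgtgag

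A promoter window was matched by symbol for 10150 of the 15398 genes tested. The letters GAAANNGAAA were found in 317 of these windows (3.12%). They were found in 30 of the 117 windows of genes called lower at 18 h (25.6%) and in 0 of the 48 of genes called higher. In the classes, 22 of 64 windows of genes falling late (34.4%), 8 of 31 of genes falling further (25.8%) and 0 of 22 of fading genes held them. In the interferon response list 17 of 28 windows did (60.7%). A STAT6-type element, TTCNNNNGAA, stood in 5.55% of all windows, in 3 of 48 of genes called higher (6.25%) and in 7 of 117 of genes called lower (5.98%). A match describes letters in a window and says nothing of binding, and the windows are too few for the small classes to be ordered.

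Some surface proteins of the Ly6 and Ms4a families, and some genes of other kinds, were called lower. The counts below stand beside 1.06% of all genes called lower, and 5.62% with the block. Ly6a, also called Sca-1, went from 1.68 and 0.98 to -0.78 and -1.54 (5.61-fold lower, limma adjusted p = 0.0173). Ly6c1 fell 5.51-fold (limma adjusted p = 0.0103) and Ly6i 3.29-fold (limma adjusted p = 0.0061), 3 calls of the 6 Ly6 genes tested, and all 6 were lower with the block. The other kept probe of Ly6c1 gave -2.75 without passing. Of 9 Ms4a genes, 3 were called lower: Ms4a4b, Ms4a4c and Ms4a4d, which were 4.12-fold, 5.03-fold and 5.07-fold lower. For Ms4a4b, 2 of its 3 other probes gave -0.59 and -0.61 without passing. Of 8 Schlafen genes 4 were called lower, led by Slfn1, a regulator of lymphoid growth, at least 3.20-fold lower, and all 8 with the block. Apol9b, an apolipoprotein L, was 5.70-fold lower (limma adjusted p = 0.0308). Tap1 and Tap2, the paired chains of the transporter that loads peptides on MHC class I, were the 2 called of 13 class I presentation genes, 2.15-fold and 1.65-fold lower (limma adjusted p = 0.026 and 0.0435), and neither kept its call in a fit that lacked 1 of these 4 arrays.

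Of 20 chemokines, 3 were called lower and 0 higher, and the block called 7 lower and 2 higher. The shares of all genes were 1.06% lower and 0.422% higher, and 5.62% and 5.83% with the block. The list median was -0.08, and it was -0.99 without replicate 1 at 4 h, -0.19 without replicate 2 at 4 h, -0.30 without replicate 1 at 18 h and -0.66 without replicate 2 at 18 h. Cxcl11, a ligand of CXCR3, was at -1.51 and -1.18 in mock, -3.34 and -2.33 at 4 h and -6.83 and -6.68 at 18 h, near background, at least 4.63-fold lower than at 4 h (limma adjusted p = 0.00311). Cxcl9, a ligand of the same receptor, was at least 1.96-fold lower, and Cx3cl1, fractalkine, 2.86-fold lower (limma adjusted p = 0.0175 and 0.0426). Cxcl10, the third CXCR3 ligand, went from 1.12 and 2.61 to -1.72 and -0.24 and missed the threshold (-2.85 ± 0.57 SE, limma adjusted p = 0.0561, or 0.0069 with the block). Leaving out replicate 1 or replicate 2 at 4 h left 2 calls of the list, and leaving out either 18 h array left 1.

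Of 12 chemoattractant receptors, 2 were called, both lower, against 1.06% of all genes. Fpr2, a formyl peptide receptor, had levels of -0.79 and -0.91 in mock and -2.71 and -2.75 at 4 h, and at 18 h it was near background, at least 4.98-fold lower (limma adjusted p = 0.00689). Cxcr3 itself went from 1.87 and 1.74 to 0.34 and 0.68 (2.46-fold lower, limma adjusted p = 0.0336). The list held 1 call without either 4 h replicate, 0 without replicate 1 at 18 h and 1 without replicate 2 at 18 h.

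Other falls lay outside these groups. Asb2, the substrate receptor of a ubiquitin ligase, was level with mock at 4 h, at -1.89 and -1.22 against -2.66 and -1.36. At 18 h it was near background, at least 11.2-fold lower (limma adjusted p = 0.0076), and it passed the filter only through the 4 h arrays. Fcgr1, the high-affinity IgG receptor, went from 6.07 and 6.54 to 4.68 and 5.26 (2.52-fold lower, limma adjusted p = 0.0382), the sole call among 12 macrophage identity genes. Ltb, lymphotoxin beta, fell 3.39-fold (limma adjusted p = 0.0399). The Notch genes went both ways, with 3 calls of 6 genes tested, against 1.48% of all genes. Dll1, a ligand, was at least 2.28-fold and Notch4, a receptor, 2.84-fold lower (limma adjusted p = 0.0303 and 0.029), while the ligand Jag1 rose.

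**Figure D4:**
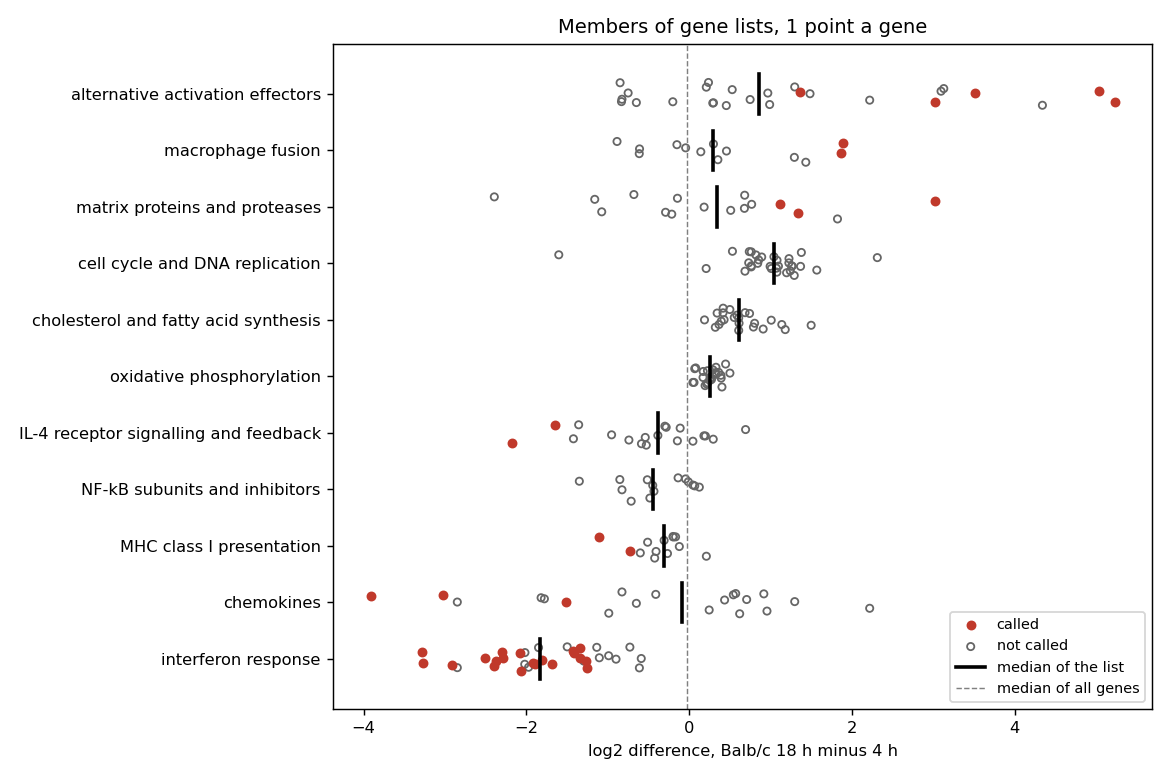
Log2 difference between 18 h and 4 h in Balb/c macrophages (horizontal) for the members of 11 gene lists, 1 point a gene, red where called, with the median of each list as a bar. Of the interferon response, 20 of 34 points are red and all lie left of 0, while all oxidative phosphorylation points lie just right of 0 and none is red.

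Several lists leaned one way with no gene called. Of 31 cell cycle and DNA replication genes, limma called 0 at adjusted p below 0.05, though the median difference was 1.04. In 24 of these genes both 18 h arrays were above both 4 h arrays, against 19.1% of all genes. Cdc6, a licensing factor of replication, was at -3.10 and -0.76 at 4 h and -0.98 and 0.25 at 18 h, and at -2.14 and -0.04 in mock. Replicate 2 was far above replicate 1 at each step, and the difference of 1.57 had a limma adjusted p of 0.515, or 0.0189 with the block. Ccne2, cyclin E2, differed by 2.31 (0.458, or 0.0444 with the block). The block called 14 of the 31 genes higher, against 5.83% of all genes, and 0 lower. The median in C57BL6 was 0.26. The within-slide medians were 1.33 and 0.63.

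Metabolic lists were alike in this. The 23 genes of cholesterol and fatty acid synthesis had a median of 0.61, with 0 called by limma, 1 higher with the block, and 15 separated, and the median within slide 2 alone was 0.12. Over all genes, 5.83% were called higher with the block and 19.1% were separated with 18 h higher. The 23 oxidative phosphorylation genes had a median of 0.26, with 0 called and 1 with the block, and the 21 glycolysis and hypoxia genes had 0.42, with 0 called and 2 with the block. The glycolysis median was 0.83 within slide 1, 0.12 within slide 2 and -0.03 in C57BL6. Of 14 NF-kB subunits and inhibitors 0 were called, and the block called 5 lower, against 5.62% of all genes. Their median was -0.44. Nfkbie, an inhibitor of NF-kB, differed by -0.71 (limma adjusted p = 0.0723, or 0.0163 with the block). The receptor Tlr2 differed by -0.95 (limma adjusted p = 0.184, or 0.00406 with the block). Of 7 neutrophil marker genes tested 0 were called and 4 were lower with the block, against 5.62% of all genes. The median of these 7 was -0.86.

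C57BL6 macrophages, whose arrays the Balb/c comparison does not use for its means, had a difference of the same sign for most of these genes. Between 4 h and 18 h, 225 genes were called in C57BL6 (1.46%), 72 higher (0.468%) and 153 lower (0.994%). Of the 228 genes called in Balb/c, 222 had the same sign in C57BL6, against 72.3% of all genes. That held for 61 of 65 genes that rose and 161 of 163 that fell. In C57BL6, 35 of the 65 and 103 of the 163 were themselves called in that direction, and 0 of the 228 were called in the other. The interferon response list gave 15 lower calls in C57BL6, with a median of -1.33.

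**Figure D5:**
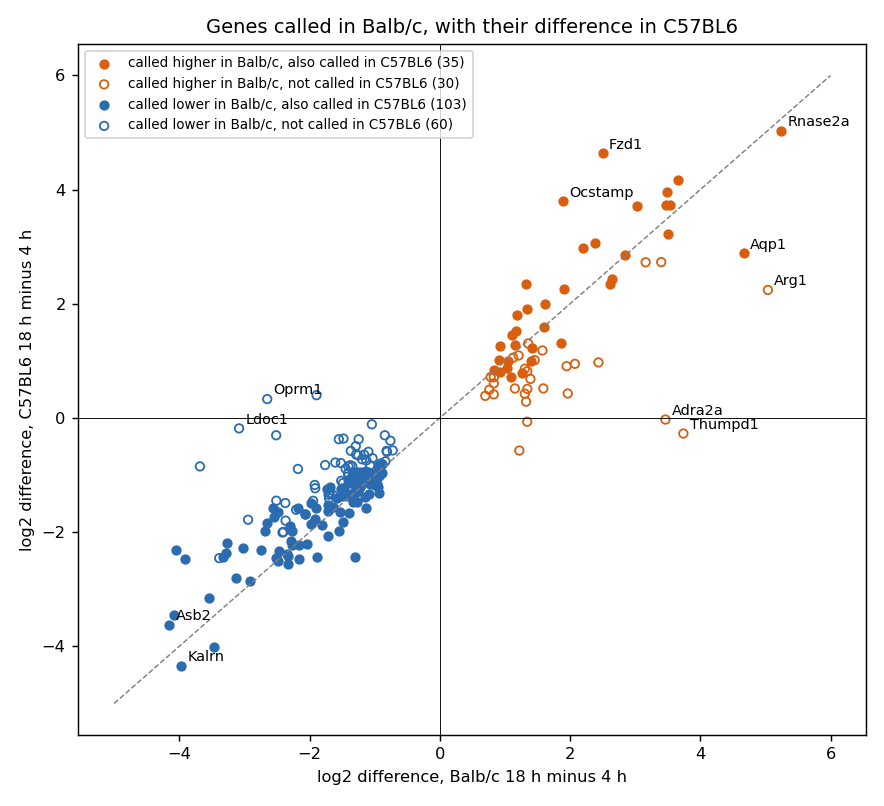
Log2 difference between 18 h and 4 h in C57BL6 (vertical) against that in Balb/c (horizontal) for the 228 genes called in Balb/c, filled where also called in C57BL6. Most points lie near the dashed line of equal differences. Points at dim levels in Balb/c, such as Thumpd1, Adra2a, Oprm1 and Ldoc1, show fitted Balb/c differences whose size is not measured.

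No difference between the strains passed the test. limma called 0 genes (0%) for the strain difference of the 18 h minus 4 h change, with or without the replicate block, while 366 genes, 45 of them among the 228, had an unadjusted p below 0.05. The log2 difference of Arg1 was 5.04 in Balb/c and 2.24 in C57BL6 (limma adjusted p = 0.0552 in C57BL6). Ocstamp rose by 1.88 and 3.79 on the log2 scale, and Fzd1 by 2.50 and 4.63. With 2 arrays a group such gaps were not called, which does not show that the strains act alike; 4 genes were called when replicate 2 of Balb/c at 4 h was left out, and 1 with the slide as a fixed block.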

How the data were processed

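Cy3-labelled RNA was hybridised to 1-colour Agilent mouse arrays, 12 in all. The deposited scanner files hold the processed green signal as a linear intensity, per the file headers; the submitters' processing notes name Agilent Feature Extraction 9.5.1.1. The authors also deposited a linear ratio per probe, which matched the scaled signal divided by the average C57BL6 mock and was used as an alternative.

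Control features and spots with outlier flags were left out, spots of a probe were averaged, and the log2 intensity minus the 75th percentile of the array was used; the deposited signal is on a linear scale, not log2. Of 41174 probes, 23039 were well above background on both arrays at 4 h or at 18 h, and the brightest kept probe of each gene was tested, 15398 genes. Names came from the accession (15464 probes), symbol (3214) or older symbol (1515) in RefSeq GRCm38.p6, and 2846 probes kept the file's name. limma 3.58.1 under R 4.3.3 fitted the 6 group means over all 12 arrays (residual degrees of freedom 6, prior 2.31), with Benjamini-Hochberg adjustment over all genes. On simulated data with 200 changed genes, 155 were recovered, with 9 false calls. The simulation used a few fixed effect sizes and noise independent between arrays, unlike the paired samples here, so these figures do not carry over. The number of arrays limits the precision.

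Members, gene lists and families were chosen with earlier results of these data known. Named were the 12 largest called rises and falls well above background, up to 6 bounds on each side, up to 4 called members of a list (or its lowest p), up to 8 of each class, and Arg1, Retnla, Chil3, Irf4, Il4ra, Stat6, Socs1 and Cish; other genes were added after their values were seen. Replicate numbers paired the samples: deviations from the Balb/c group means correlated at 0.716 (mock and 4 h), 0.486 (mock and 18 h) and 0.691 (4 h and 18 h), and the series text gives 2 independent experiments. The fit has no block, and blocked values are given where they change a call. Alternatives covered background correction, scaling, the filter, the arrays fitted, array weights, blocks and each array left out.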

Additional observations from a re-analysis of the deposited data

How the results depend on the processing

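Counts of genes called, Balb/c first and C57BL6 second, were 228 and 225. They became 23 and 15 with normexp background correction, 50 and 56 with no filter on dim probes, 108 and 1183 with array weights, 1763 and 1773 with the replicate block, and 496 and 401 with slide as a random block. Median scaling, which moved the median of all genes from -0.02 to 0.09, gave 151 in Balb/c. Only the arrays compared gave 0 in Balb/c (1241 at an unadjusted p below 0.05) and 346 in C57BL6, and only the 6 Balb/c arrays 0 (1315 unadjusted). Quantile normalization (234), the deposited ratios (240), slide as a fixed block (301) and a filter on all 4 arrays (184) kept the Balb/c count within 1.5 times. Leaving out 1 array gave 44 to 231 in Balb/c and 0 to 42 in C57BL6; the strain difference went from 0 to between 0 and 4, and to 1 with slide as a fixed block.

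The normexp fit lifted the dim end of several arrays (10th percentile of signal 465.9 to 1105 on 6 of them). Both Balb/c 4 h arrays were among these (566 and 465.9), while the Balb/c 18 h arrays were at 81.09 and 66.39. The part of this imbalance in the reversals was not tested. Refitted on spots without outlier flags, an alternative chosen after seeing the data, normexp gave 254 calls and reversed no named gene. In the planned normexp fit these rises reversed: Thumpd1 (-1.16), Gfi1b (-0.080), Fzd1 (-0.49), Tuba8 (-0.22), Lipn (-0.10), Stk32c (-1.24), Ear10 (-0.21), Ear6 (-0.27), Ear3 (-0.63), Aqp1 (-0.41), Slc7a11 (-1.40), Gfra2 (-0.53) and Adra2a (-1.20). No other alternative reversed a named gene. The replicate block passed 27 more named genes and lost none; with the block on only the 6 Balb/c arrays 21 fell short.

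The classes rising late, rising further, recovering, fading, falling late and falling further held 23, 24, 18, 32, 92 and 39 genes. Limits of 1 log2 changed rising late to 44, rising further to 14, recovering to 7 and falling further to 18. Splitting by adjusted p at 4 h gave 51, 8, 6, 17, 141 and 5, and the replicate block 616, 84, 197, 169, 517 and 180. Median scaling left 16 fading and 44 falling late. Leaving out 1 array gave 3 to 33 rising late, 5 to 24 rising further, 1 to 23 recovering, 5 to 46 fading, 22 to 87 falling late and 8 to 45 falling further. The cause of these shifts was not tested.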
